A study of Homo sapiens with 42 samples.

Results

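PANC-1 cells given simvastatin at 20 µM were compared with PANC-1 cells given lovastatin at 20 µM, with 3 libraries in each group. Sample titles give the line, the statin and the dose, and by these the 6 libraries were taken out of 42 samples in all. PANC-1 is an established epithelial line from a human pancreatic ductal carcinoma, and the whole series also held MiaPaCa-2, another pancreatic cancer line. The PANC-1 control group without a statin (3 libraries), the PANC-1 groups with simvastatin or lovastatin at 2 µM (3 libraries each), and the MiaPaCa-2 groups with either statin at 20 µM serve as points of comparison below. All cells were grown in serum-containing medium, and polyadenylated RNA was sequenced. Neither the vehicle of the control cells nor the length of treatment is stated in the labels. Replicates are not said to be separate cultures, so the scatter between libraries, on which SDs and p-values rest, may be technical. Within PANC-1, p-values use a spread estimated over all 7 of its groups, and not over the 6 compared libraries alone. Each line is a single established line, and what is measured in it holds for that line.

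Statins block the making of mevalonate, from which cells build cholesterol and the farnesyl and geranylgeranyl tails of small GTPases. Cells short of sterol process the SREBP transcription factors, which raise the genes of sterol synthesis and of lipoprotein uptake. Loss of geranylgeranylated small GTPases alters the actin cytoskeleton, and the transcription factor partners MRTF with SRF, and YAP or TAZ with TEAD, respond to the state of actin. Simvastatin and lovastatin are both lactone prodrugs and share the same ring system, and simvastatin has an additional methyl group on its ester side chain. They were used at matched nominal doses, so the comparison holds the dose fixed and changes the compound.

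Simvastatin replicate 3 stood apart from its group before any gene was tested. Its log2 values correlated with replicates 1 and 2 at r = 0.967 each, against 0.988 between replicates 1 and 2 and 0.988 to 0.989 among the lovastatin libraries. It differed by at least 2-fold from the mean of the other 2 libraries at 427 genes, against 120 and 135 genes for replicates 1 and 2 and 52 to 64 for the lovastatin libraries. In it, 76 genes sat together at its lowest value of 0.0952 FPKM, while 5 to 13 genes shared the lowest value in each of the other 5 libraries. Control replicate 3 stood apart as far, at r = 0.967 with each of the other control libraries against 0.987 between them, so statements about the control rest on the values of its 3 libraries. The deposited values carry no read counts, so depth is unknown and its part in the precision cannot be assessed. Levels are in FPKM, which scales fragments by the length of the transcript and by the mapped total. Differences are simvastatin minus lovastatin on the log2(FPKM + 1) scale, which understates the change of genes near 0 FPKM. A gene was called at a Benjamini-Hochberg adjusted p under 0.05 in limma over all 8615 genes tested, and results are given with and without simvastatin replicate 3 where it matters.

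The difference between the statins also followed transcript length. In PANC-1 at 20 µM the median log2 difference was 0.31 in the 861 genes with the shortest transcripts (75 to 1191 bases) and -0.33 in the 860 with the longest (7285 to 34526 bases), and it declined through each of the groups of like size between them. Of the shortest group, 42.0% of genes were higher with simvastatin and 4.99% lower, and of the longest group, 4.19% were higher and 43.7% lower. Genes called higher had a median transcript length of 1952.5 bases, genes called lower 4927 bases, and genes not called 3315 bases. Set against the mean of all PANC-1 libraries, the longest group minus the shortest was -0.50, -0.48 and -0.47 in the 3 simvastatin libraries and 0.12, 0.14 and 0.17 in the 3 lovastatin libraries. Without simvastatin replicate 3 the medians were 0.32 in the shortest and -0.32 in the longest group. At 2 µM they were near 0 in every group, and the order ran the other way in MiaPaCa-2 (-0.09 and 0.09). Counts adjusted for transcript length, an adjustment chosen after the data were seen, are given beside the lists that it moves.

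**Figure D1:**
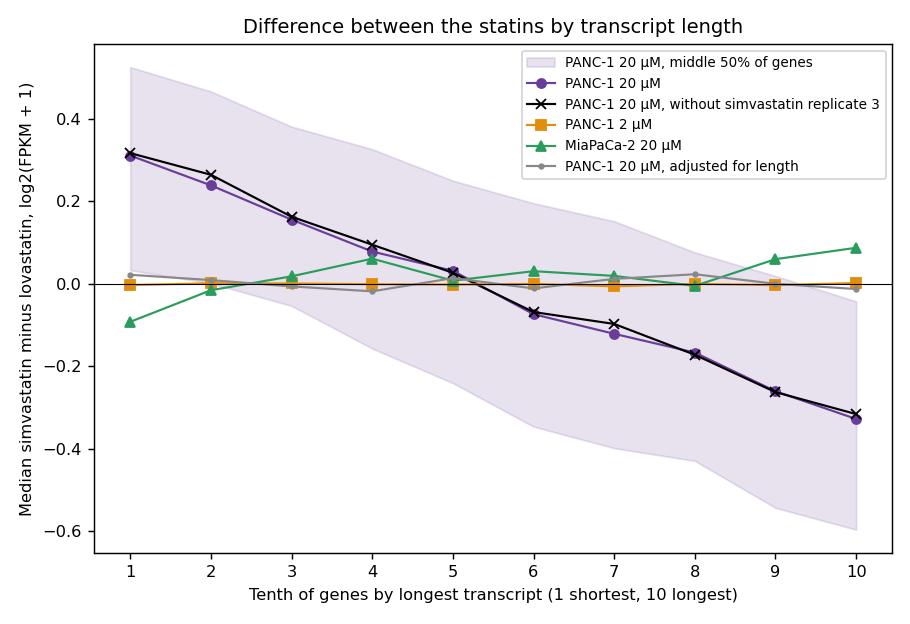
Median difference between simvastatin and lovastatin, in log2(FPKM + 1), for genes in 10 groups of like size by their longest annotated transcript, with the middle 50% of genes shaded for PANC-1 at 20 µM. The PANC-1 line at 20 µM falls from 0.31 to -0.33 and lies close to the line without simvastatin replicate 3, while the lines for 2 µM and for MiaPaCa-2 stay within 0.1 of 0.

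Across the table, 3319 of 8615 genes differed between the statins at 20 µM, or 38.5%. Of these, 1514 (17.6%) were higher with simvastatin and 1805 (21%) lower. A difference of at least 2-fold was found for 92 genes that were higher (1.07%) and 140 that were lower (1.63%). Without simvastatin replicate 3, 2962 genes (34.4%; 15.9% higher and 18.5% lower) were called, and 2601 of the 3319 kept their call and direction. Adjusted for transcript length, 2517 genes (29.2%; 13.2% higher and 16.1% lower) were called, 1946 of them in common with the 3319 and in the same direction. With both changes 2029 genes (23.6%; 10.2% higher and 13.3% lower) were called, 1538 of them in common. The 3 libraries of one statin did not overlap those of the other for 4041 genes (46.9%). Among the genes not called, 4773 of 5296 had a 95% interval of the difference inside 2-fold in either direction.

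**Figure D2:**
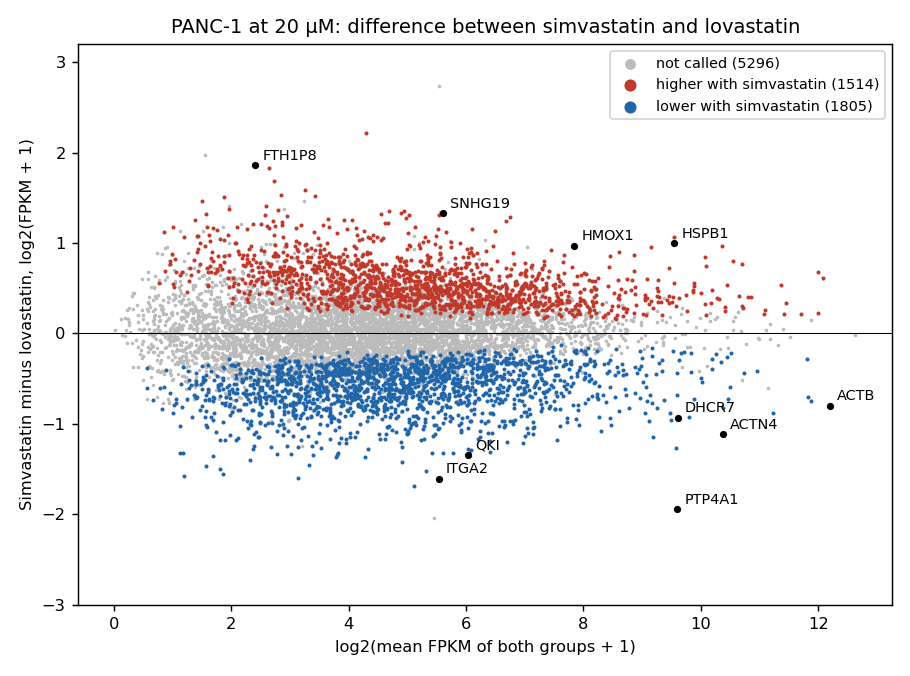
Difference between simvastatin and lovastatin at 20 µM in PANC-1 (vertical axis, log2(FPKM + 1)) against mean level (horizontal axis, log2) for the 8615 genes tested, coloured by limma call. ITGA2, PTP4A1, ACTN4 and DHCR7 lie among the 1805 genes that were lower with simvastatin, and HSPB1 and HMOX1 among the 1514 that were higher.

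The 12 genes named as lower with simvastatin than with lovastatin included genes of adhesion, RNA processing and the cell cycle. ITGA2, the collagen-binding integrin alpha 2, had 22.8, 23.3 and 19.8 FPKM with simvastatin and 70.04, 66.5 and 69.3 FPKM with lovastatin (log2 difference -1.60, SE 0.10, adjusted p = 5.78e-09). Its control libraries had 40.7, 39.99 and 30.1 FPKM, and lovastatin lay above them and simvastatin below. QKI, an RNA-binding protein that regulates splicing, had 37.3, 32.8 and 37.6 FPKM against 89.3, 97.8 and 90.8 FPKM (log2 difference -1.34, SE 0.12, adjusted p = 5.13e-07). Its groups were far apart, and each was tight. CENPO, a kinetochore protein, had 5.84, 4.44 and 2.92 FPKM with simvastatin, 11.2, 15.4 and 14.1 FPKM with lovastatin and 29.7, 27.00 and 23.6 FPKM in the control (log2 difference -1.46, SE 0.20, adjusted p = 2.91e-05). Both statin groups lay below the control, simvastatin further.

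PTP4A1, the tyrosine phosphatase PRL-1, had the largest decrease of the 12, and 1 library set its size. Its simvastatin libraries had 515, 545 and 89.1 FPKM and its lovastatin libraries 855, 1577 and 1065 FPKM (log2 difference -1.94, SE 0.46, adjusted p = 0.00316). The low value was that of replicate 3, and without it the difference was -1.09 (adjusted p = 0.00375). SETD5, a chromatin regulator, had 22.7, 11.4 and 13.5 FPKM against 43.3, 48.2 and 63.3 FPKM (log2 difference -1.68, SE 0.26, adjusted p = 9.91e-05). Its groups did not overlap, which the rule that named these 12 genes required. Further named decreases were those of DAB2, an endocytic adaptor (-1.40, SE 0.22), the phospholipid flippase ATP11A (-1.36, SE 0.23), topoisomerase TOP3A (-1.34, SE 0.24), the Integrator subunit INTS6 (-1.37, SE 0.34), PRR11 (-1.60, SE 0.44) and R3HDM2 (-1.52, SE 0.20). PRR11 rested in part on lovastatin replicate 1 (3.25, 2.29 and 2.79 FPKM with simvastatin against 25.2, 6.19 and 6.86 FPKM), with -1.002 and no call without it (adjusted p = 0.0582). INTS6 rested in part on replicate 3, with -0.86 without it. The pseudogene GNAI2P1 (-1.42, SE 0.21) is near-identical to its parent gene, and its reads may be shared with it.

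The 11 genes named as higher with simvastatin were of mixed kinds, noncoding genes and pseudogenes among them. SNHG19, a host gene of small nucleolar RNAs, had 62.6, 71.7 and 72.4 FPKM with simvastatin, 23.02, 29.7 and 28.1 FPKM with lovastatin and 45.7, 45.4 and 60.5 FPKM in the control (log2 difference 1.33, SE 0.14, adjusted p = 1.63e-06). Here the lovastatin libraries lay below the control and the simvastatin libraries above it. PRPH, the intermediate filament protein peripherin, had 11.7, 13.5 and 14.3 FPKM against 4.85, 2.08 and 4.79 FPKM and 0.982, 0.0818 and 0.0336 FPKM in the control (log2 difference 1.59, SE 0.28, adjusted p = 0.000327). TNNI3, known as cardiac troponin I, had 37.4, 38.1 and 61.9 FPKM against 17.4, 14.4 and 20.7 FPKM (log2 difference 1.31, SE 0.23, adjusted p = 0.000272). Lovastatin libraries of TNNI3 overlapped the control, at 14.03, 24.6 and 13.7 FPKM, and simvastatin replicate 3 was the highest.

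Of the other genes named by the same rule, WFDC2, a secreted protease inhibitor-like protein, had 1.31, SE 0.29, the kelch protein gene KBTBD3 1.33, SE 0.29, and the less studied C6orf226 and FAM227B 1.53, SE 0.33 and 1.37, SE 0.30. In these 4 genes simvastatin replicate 3 was the highest library, and the differences without it were 1.000, 1.01, 1.23 and 1.01. FTH1P8, a pseudogene of ferritin heavy chain, had 1.86, SE 0.31, the noncoding RBAKDN 1.82, SE 0.44, the pseudogene RPL13P2 1.35, SE 0.13 and the ribosomal protein gene RPS10 1.32, SE 0.20. Reads of the pseudogenes and of RPS10 may be shared with near-identical copies, so the values are uncertain as to their source. FTH1P8 went the same way as FTH1 itself, described below.

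**Figure D3:**
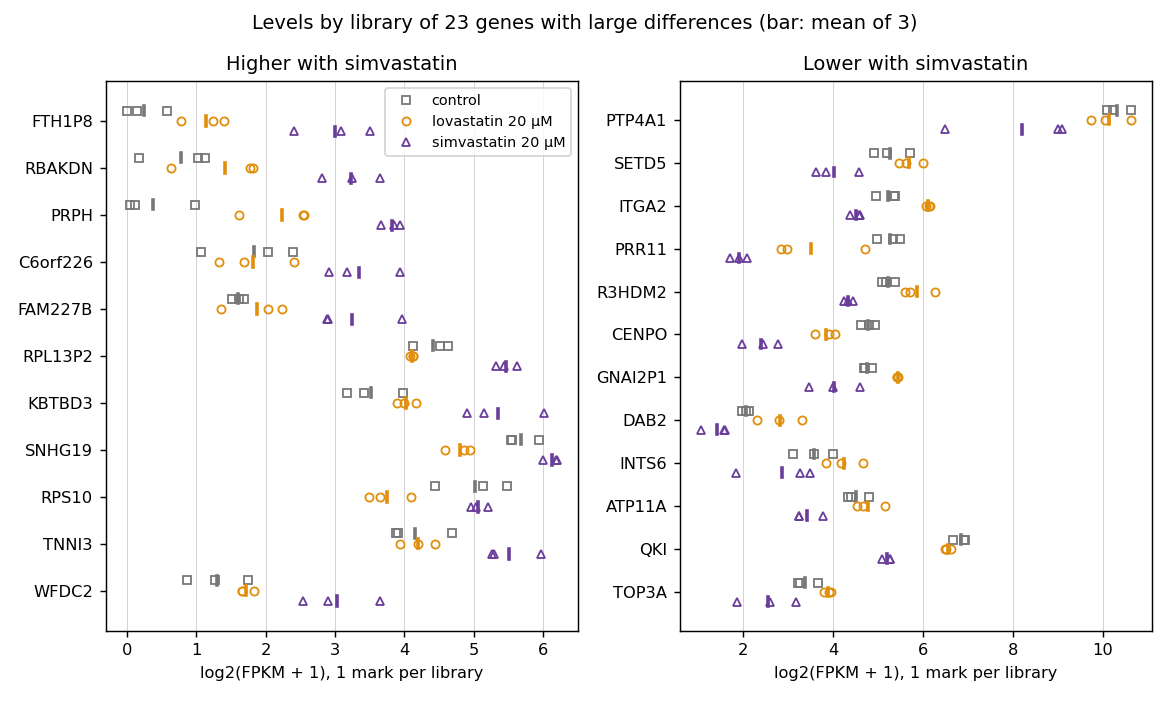
Levels in log2(FPKM + 1) of the 11 genes named as higher and the 12 named as lower with simvastatin, with 1 mark per library for control, lovastatin and simvastatin at 20 µM and a bar at each group's mean. Simvastatin and lovastatin marks do not overlap for any of the 23 genes, which the rule required, and simvastatin replicate 3 sets PTP4A1 apart at 89.1 FPKM.

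Cholesterol synthesis genes were higher with both statins than in the control, and a few of them differed between the statins. Of 22 genes, 20 were higher than the control with simvastatin and 19 with lovastatin, where 59.5% of all genes differed from the control with simvastatin (29.4% higher and 30.2% lower) and 46.3% with lovastatin (23.9% higher and 22.4% lower). Between the statins 4 were higher and 4 lower, and the median difference of 0.06 lay beside -0.01 for all genes tested. The lower genes included DHCR7, SC5D and LSS, of which LSS closes the first sterol rings and the others act late in the pathway. DHCR7, which makes cholesterol from 7-dehydrocholesterol, had 568, 601 and 442 FPKM with simvastatin against 1007, 1037 and 1007 FPKM with lovastatin and 170.1, 161 and 141 FPKM in the control (log2 difference -0.93, SE 0.09, adjusted p = 1.06e-06). For DHCR7 the lovastatin libraries were the highest of the 3 groups and no library overlapped. SC5D had -0.56, SE 0.11 and LSS -0.50, SE 0.14, and LSS lost its call when adjusted for length (-0.33, adjusted p = 0.0931). The 4 higher genes, EBP, FDFT1, MVK and PMVK, were named after their values were seen, with differences of 0.25 to 0.41. The comparisons of the statins with the control share the control libraries. Adjusted for length, 2 genes were higher and 4 lower.

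Fatty acid desaturases were lower with simvastatin too. FADS1, the delta-5 desaturase, had 75.8, 96.9 and 66.4 FPKM with simvastatin, 165, 182 and 175 FPKM with lovastatin and 121, 119.9 and 94.9 FPKM in the control (log2 difference -1.13, SE 0.12, adjusted p = 2.34e-06). Lovastatin libraries lay above the control, and simvastatin libraries overlapped its low end. FADS2 had -0.66, SE 0.08, the stearoyl-CoA desaturase SCD -0.66, SE 0.05 and the citrate lyase ACLY -0.50, SE 0.11, and for these 3 genes both statin groups had higher means than the control. In the fatty acid list, 5 of 12 genes were lower and 3 higher with simvastatin, and 5 and 4 when adjusted for length. Of 15 genes of sterol uptake and SREBP control, 4 (26.7%) were lower and 1 (6.67%) higher, beside 21% and 17.6% of all genes. SCARB1, the HDL receptor, had -0.57, SE 0.10, LRP8, an apolipoprotein E receptor, -0.59, SE 0.12, and the cholesterol esterifying enzyme SOAT1 -0.62, SE 0.15, while the liver X receptor NR1H2 had 0.48, SE 0.10. Adjusted for length, 1 gene of that list was lower and 1 higher, and SCARB1 was at -0.36, with LRP8 (-0.29) and SOAT1 (-0.34) not called. Of the 14 genes of prenyl transfer and CAAX processing, RABGGTB alone was called (0.33, SE 0.10), and it was not called without lovastatin replicate 1 or 2 or simvastatin replicate 2.

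In the list of SRF targets and actin cytoskeleton genes, 11 of 20 were lower with simvastatin, 1 was higher and 8 were not called. ACTN4, which crosslinks actin filaments, had 823, 817 and 878 FPKM with simvastatin and 1873, 1795 and 1795 FPKM with lovastatin (log2 difference -1.12, SE 0.12, adjusted p = 2.14e-06). VCL, the focal adhesion protein vinculin, had 70.1, 67.9 and 58.6 FPKM against 126, 129.5 and 132 FPKM, with 116, 111 and 108 FPKM in the control (log2 difference -0.97, SE 0.06, adjusted p = 1.35e-08). The lovastatin libraries of VCL were above the control and the simvastatin libraries below it. ACTB, cytoplasmic beta actin, had 3457, 3934 and 2933 FPKM against 5950.4, 5950.4 and 5950.4 FPKM (log2 difference -0.80, SE 0.11, adjusted p = 2.86e-05). At least 97.1% of the values of each library recur in 5 or more columns of the table, as in a table scaled to a common distribution, which is how ACTB has 1 value in all 3 lovastatin libraries. ACTN1 had -0.89, SE 0.09. The median of the list was -0.37, and 12 were lower and 2 higher when adjusted for length. The higher one was FLNA, which encodes filamin A, named after its value was seen, at 478, 476 and 494 FPKM against 354, 347 and 348 FPKM (log2 difference 0.46, SE 0.09, adjusted p = 0.000514). Without simvastatin replicate 3, 11 were lower and 1 higher.

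YAP and TAZ targets were lower in 13 of 19 genes, with 0 higher and a median difference of -0.73. Without simvastatin replicate 3, 10 were lower, adjusted for length 13, and with both 8. NT5E, the cell surface nucleotidase CD73, had 109, 115 and 115 FPKM with simvastatin and 269.7, 255 and 247 FPKM with lovastatin, and 174, 169.8 and 153 FPKM in the control (log2 difference -1.18, SE 0.07, adjusted p = 3.99e-09). Its simvastatin libraries lay below the control and its lovastatin libraries above it, with no overlap. ASAP1, an Arf GTPase-activating protein, had 33.4, 35.3 and 23.1 FPKM against 71.4, 74.7 and 84.9 FPKM (log2 difference -1.32, SE 0.13, adjusted p = 8.47e-07). TEAD1, a DNA-binding partner of YAP, had 12.7, 15.3 and 11.97 FPKM against 35.4, 32.97 and 22.96 FPKM (log2 difference -1.12, SE 0.15, adjusted p = 3.22e-05), and TGFB2 had -0.95, SE 0.23. CTGF, a matricellular protein much used as a readout of YAP and named after its values were seen, had 119, 109 and 113 FPKM against 197, 187 and 187 FPKM, with 105, 99.9 and 79.7 FPKM in the control (log2 difference -0.74, SE 0.08, adjusted p = 2.91e-06). The CTGF levels with simvastatin thus lay between the control and lovastatin.

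Promoters of these genes were read from RefSeq, build GRCh38.p14, as the 250 bases before the annotated gene start on the gene's strand, for 15 of the 19 YAP and TAZ targets and 18 of the 20 actin genes. The TEAD motif GGAATG, searched on both strands, was in 5 of the 15 and in 11.9% of 35116 promoters of that length, and 9 of the 15 genes were called lower, of which 4 held the motif and 5 did not. The CArG box, the SRF motif, searched on both strands, was in 6 of the 18 and in 1.16% of all promoters. Of those 6, ACTG1, TPM4, CNN2 and FHL2 were lower, FLNA was higher, and SRF had -0.20 without a call. A match is a description of the letters and not a measured binding site. Shown here are CTGF, which held 3 TEAD motifs (169, 104 and 95 bases before the start), ACTG1, and FLNA, whose CArG box stood at 94 bases before the start as in ACTG1 while its difference had the opposite sign. The motifs are in capitals, and the windows are chr6:131951373-131951622, minus strand, for CTGF, chr17:81512800-81513049, minus strand, for ACTG1 and chrX:154374635-154374884, minus strand, for FLNA.
CTGF: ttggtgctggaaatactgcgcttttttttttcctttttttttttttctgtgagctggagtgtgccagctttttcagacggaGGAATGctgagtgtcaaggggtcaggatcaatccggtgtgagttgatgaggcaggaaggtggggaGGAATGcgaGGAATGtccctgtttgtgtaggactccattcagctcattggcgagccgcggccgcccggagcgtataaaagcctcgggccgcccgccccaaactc
ACTG1: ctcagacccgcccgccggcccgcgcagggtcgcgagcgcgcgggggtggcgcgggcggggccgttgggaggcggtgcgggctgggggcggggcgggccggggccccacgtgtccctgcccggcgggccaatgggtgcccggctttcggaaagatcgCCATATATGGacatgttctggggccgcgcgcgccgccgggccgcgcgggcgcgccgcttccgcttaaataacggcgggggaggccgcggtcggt
FLNA: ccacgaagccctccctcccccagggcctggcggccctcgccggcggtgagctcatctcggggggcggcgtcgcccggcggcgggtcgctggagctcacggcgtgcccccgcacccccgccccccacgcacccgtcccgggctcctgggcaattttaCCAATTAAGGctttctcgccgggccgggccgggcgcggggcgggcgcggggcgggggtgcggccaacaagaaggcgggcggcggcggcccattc

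ACTG1, cytoplasmic gamma actin, had 2764, 2852 and 2764 FPKM with simvastatin and 4598, 4256 and 5243 FPKM with lovastatin (log2 difference -0.75, SE 0.07, adjusted p = 3.72e-07). The groups did not overlap, and the decrease was of the size of that of ACTB, with which it shares much of its coding sequence, so reads could be split between them.

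Integrins and matrix genes were lower in 16 of 38 genes and higher in 1. Without simvastatin replicate 3 there were 15 lower and 0 higher, and adjusted for length 15 lower and 4 higher. Apart from ITGA2, the integrin subunit ITGB3 had 1.69, 2.44 and 2.03 FPKM with simvastatin against 6.33, 5.87 and 6.84 FPKM with lovastatin (log2 difference -1.27, SE 0.12, adjusted p = 7.29e-07). ITGB1, the beta subunit shared by many integrins, had 380.5, 388 and 339 FPKM against 697, 646 and 702 FPKM, with 518, 545 and 508 FPKM in the control (log2 difference -0.88, SE 0.06, adjusted p = 1.18e-08). For ITGB1, as for ITGA2, lovastatin libraries were above the control and simvastatin libraries below it, while for ITGB3 (2.83, 3.14 and 2.42 FPKM in the control) simvastatin overlapped the control. MMP2, a gelatinase, had 46.6, 51.8 and 21.1 FPKM against 74.2, 80.1 and 82.2 FPKM, and without replicate 3, its lowest library, the difference was -0.67. Among junction and keratin genes 9 of 25 were lower and 5 higher (6 and 3 without simvastatin replicate 3, 7 and 3 adjusted for length), with F11R at -0.78, DSG2 at -0.73 and KRT80 at -0.70.

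Some feedback genes of the ERK pathway were lower with simvastatin. SPRY4, a Sprouty inhibitor of receptor tyrosine kinase signalling, had 15.4, 16.9 and 11.99 FPKM with simvastatin and 32.4, 29.9 and 36.5 FPKM with lovastatin (log2 difference -1.11, SE 0.14, adjusted p = 1.62e-05). In the control it had 15.4, 14.8 and 23.02 FPKM, which overlapped simvastatin and lay below lovastatin. SPRED1 had -1.04, SE 0.16, SPRED2 -0.81, SE 0.13 and DUSP6, a phosphatase that acts on ERK, -0.91, SE 0.20. The list of MAPK feedback and AP-1 genes had 9 of 26 lower and 2 higher, and 10 and 1 when adjusted for length. The 2 higher genes were JUND (0.57) and JUNB (0.30), AP-1 subunits named after their values were seen. Of small GTPases of the RHOA and RAC kind and their regulators, 5 of 18 were higher and 4 lower. Without simvastatin replicate 3 there were 5 higher and 2 lower, and adjusted for length 3 higher and 5 lower. The kinase ROCK2, an effector of RHOA, had -0.68, SE 0.12 and the GTPase-activating protein ARHGAP29 -0.76, SE 0.09, while RAC3 had 0.68, SE 0.12 and RHOV 0.68, SE 0.14. Adjusted for length, ROCK2 was at -0.37, ARHGAP29 at -0.45 and RAC3 at 0.41, all still called. RHOA and CDC42 were not called (-0.05, interval -0.16 to 0.05, and -0.01, interval -0.14 to 0.12).

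Genes of proliferation were lower than the control with both statins, and some were lower with simvastatin than with lovastatin. All 32 mitosis genes tested and 34 of 36 replication genes were called below the control with each statin. Between the statins, 12 mitosis genes were lower and 1 higher, and 13 replication genes were lower and 2 higher. Adjusted for length the counts were 14 lower and 1 higher, and 15 lower and 2 higher, and without simvastatin replicate 3 0 were higher in either list. MKI67, the proliferation marker Ki-67, had 7.85, 6.81 and 6.05 FPKM with simvastatin, 15.4, 19.5 and 15.4 FPKM with lovastatin and 56.8, 62.99 and 52.2 FPKM in the control (log2 difference -1.17, SE 0.13, adjusted p = 4.37e-06). MCM4, a subunit of the replicative helicase, had 82.7, 71.5 and 65.8 FPKM, 159, 141 and 140.0 FPKM and 348, 317 and 316 FPKM (log2 difference -0.996, SE 0.11, adjusted p = 4.08e-06). In both genes the 3 groups were ordered control, lovastatin, simvastatin, with no overlap.

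MCM5 had -0.97, SE 0.21, the helicase factor GINS1 -1.09, SE 0.25, the spindle protein DLGAP5 -0.84, SE 0.15 and the checkpoint kinase BUB1B -0.77, SE 0.21. The BUB1B groups overlapped, with 15.5 FPKM in simvastatin replicate 3 and 14.97 FPKM in lovastatin replicate 2. Without simvastatin replicate 3 the BUB1B difference was -1.09. The kinase PLK1 (-0.79, SE 0.23) was not called without simvastatin replicate 3 (adjusted p = 0.0707) or without lovastatin replicate 3 (-0.52, adjusted p = 0.0892). Cell cycle inhibitors and p53 targets were higher in 4 of 18 genes (22.2%, beside 17.6% of all genes) and lower in 0, with GADD45A at 0.53, SE 0.16, CDKN1B, the inhibitor p27, at 0.57, SE 0.17 and TP53I3 at 0.44, SE 0.11. After adjustment for length 2 were higher and 1 lower, with GADD45A and TP53I3 not called, and GADD45A and CDKN1B were not called without simvastatin replicate 3 or without lovastatin replicate 1.

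BBC3, which encodes the death-promoting BH3 protein PUMA, had the largest difference between the statins of the 15 BCL2 family genes tested. It had 22.2, 22.2 and 24.6 FPKM with simvastatin, 10.6, 14.1 and 12.2 FPKM with lovastatin and 2.83, 2.998 and 4.82 FPKM in the control (log2 difference 0.86, SE 0.16, adjusted p = 0.000432). Levels stepped up from control to lovastatin to simvastatin without overlap. BCL2L1, the survival gene of BCL-XL, went the other way between the statins, with 135, 133 and 131 FPKM against 199.6, 205 and 209.7 FPKM (log2 difference -0.62, SE 0.07, adjusted p = 4.57e-06). BAD, another BH3 gene, had 0.76, SE 0.17, and 0.49 adjusted for length. BCL2L11, which encodes BIM, had 5.05, 4.92 and 12.9 FPKM against 4.17, 4.29 and 4.42 FPKM, and its call was lost without replicate 3, its highest library (0.18, adjusted p = 0.27), as it was without any 1 of the 3 lovastatin libraries. In the family, 5 were higher and 3 lower, and 3 and 2 without replicate 3.

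Some stress genes were higher with simvastatin than with lovastatin. Of 28 genes of the integrated stress response, 11 were higher and 4 lower, and 10 were higher and 1 lower when adjusted for length. CEBPB, a transcription factor of the response, had 62.7, 59.04 and 58.8 FPKM with simvastatin, 33.6, 33.7 and 32.7 FPKM with lovastatin and 17.1, 15.3 and 13.6 FPKM in the control (log2 difference 0.83, SE 0.09, adjusted p = 3.25e-06). NUPR1, a stress-induced nuclear protein, had 205, 220.2 and 203 FPKM, 129, 125 and 133 FPKM and 42.7, 51.6 and 39.9 FPKM (log2 difference 0.70, SE 0.09, adjusted p = 2.77e-05). PPP1R15A, which directs dephosphorylation of eIF2 alpha, had 0.64, SE 0.11, and DDIT3, the transcription factor CHOP, named after its value was seen, had 0.58, SE 0.07. Each of these 4 genes had a lovastatin mean above the control mean and a simvastatin mean above that. ALDH1L2, a mitochondrial folate enzyme, was lower (-0.73, SE 0.21), without a call when adjusted for length.

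Of 20 NRF2 targets, 6 were higher with simvastatin and 2 lower, and adjusted for length 5 and 3. Among the higher ones were HMOX1 and both ferritin genes. HMOX1, haem oxygenase 1, had 305, 297 and 311 FPKM with simvastatin, 153, 156 and 155 FPKM with lovastatin and 27.6, 27.9 and 27.5 FPKM in the control (log2 difference 0.97, SE 0.05, adjusted p = 3.99e-09). FTH1, ferritin heavy chain, had 1577, 1834 and 1834 FPKM against 903, 895 and 878 FPKM (log2 difference 0.97, SE 0.11, adjusted p = 4.57e-06), and FTL, ferritin light chain, 4598, 5243 and 5243 FPKM against 3093, 3010.1 and 3318 FPKM (log2 difference 0.68, SE 0.15, adjusted p = 0.00193). HSPB1, the small heat shock protein HSP27 of the chaperone list, had 967, 977 and 1037 FPKM, 508, 499 and 483 FPKM and 192, 174 and 217 FPKM in the control (log2 difference 0.999, SE 0.07, adjusted p = 2.36e-08). All 4 genes were ordered control, lovastatin, simvastatin without overlap, and adjusted for length their differences were 0.77, 0.71, 0.39 and 0.77, that of FTL without a call (adjusted p = 0.0512). Among the lower NRF2 targets was the exporter ABCC3 (-0.53, SE 0.15), which was not called when adjusted for length. Of 20 cytosolic heat shock genes, 2 (10%) were higher and 4 (20%) lower, beside 17.6% and 21% of all genes. The lower ones included the co-chaperone STIP1 (-0.52, SE 0.09) and DNAJB1 (-0.30, SE 0.06).

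In the endoplasmic reticulum list 8 of 21 genes were lower and 3 higher, and 6 and 1 when adjusted for length. CANX, the chaperone calnexin, had 231, 228 and 239.9 FPKM with simvastatin and 448, 489.9 and 474 FPKM with lovastatin (log2 difference -1.01, SE 0.07, adjusted p = 1.18e-08), while lovastatin overlapped the control at 478, 499 and 581 FPKM. SYVN1, a ligase of ER-associated degradation, had -0.79, SE 0.09, the chaperone calreticulin, CALR, -0.42, SE 0.09 and the sensor ATF6 -0.49, SE 0.14, the last without a call when adjusted for length or without replicate 3. Of NF-kappaB targets, 7 of 26 were lower and 2 higher. ICAM1, an adhesion molecule, had 36.8, 43.6 and 34.6 FPKM against 78.5, 72.1 and 82.8 FPKM (log2 difference -1.01, SE 0.09, adjusted p = 3.72e-07), and LCN2, the siderophore-binding lipocalin, 15.5, 10.5 and 20.7 FPKM against 5.49, 5.89 and 6.67 FPKM (log2 difference 1.198, SE 0.26, adjusted p = 0.00179). These 2 genes of the same list moved in opposite directions, and lovastatin lay above the control for both (70.2, 64.4 and 56.6 FPKM for ICAM1 and 0.742, 0.102 and 1.64 FPKM for LCN2).

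Interferon-stimulated genes were higher in 10 of 21 genes and lower in 1, with a median of 0.36. Adjusted for length, 9 were higher and 1 lower, without simvastatin replicate 3, 8 and 1, and with both, 6 and 0. ISG15, a ubiquitin-like antiviral protein, had 62.2, 61.1 and 57.6 FPKM with simvastatin, 30.5, 31.8 and 34.7 FPKM with lovastatin and 22.8, 18.1 and 20.6 FPKM in the control (log2 difference 0.88, SE 0.12, adjusted p = 3.85e-05). IFI6, a membrane protein induced by interferon, had 14.9, 15.02 and 16.8 FPKM against 7.73, 8.27 and 6.05 FPKM, with 9.44, 6.83 and 11.3 FPKM in the control (log2 difference 0.998, SE 0.17, adjusted p = 0.000199). Simvastatin libraries were the highest for both genes, and lovastatin libraries were above the control for ISG15 and overlapped it for IFI6. Adjusted for length, ISG15 was at 0.58. IFITM2 had 32.5, 37.1 and 77.1 FPKM against 23.3, 20.1 and 24.2 FPKM, with 0.61 without replicate 3, the highest. OAS3, which makes the messenger that activates RNase L, was the 1 lower gene, at 3.08, 5.41 and 1.99 FPKM against 10.4, 6.86 and 7.32 FPKM (log2 difference -1.08, SE 0.25, adjusted p = 0.00256). Against the control, 6 genes of the list were higher and 7 lower with simvastatin, and 4 and 7 with lovastatin.

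The interferon-stimulated response element, searched as GAAANNGAAA on both strands in the same windows of 250 bases, was in 11 of 17 promoters matched for this list and in 3.02% of all 35116. Of 7 genes called higher that had a promoter, 5 held it. It was also in the promoter of OAS3 and of 5 genes without a call. Printed for comparison are ISG15 and IFI6, the higher genes with the most marked differences among those 5, and OAS3, the lower one, with the elements in capitals. In ISG15 2 matches overlap. The windows are chr1:1013247-1013496, plus strand, for ISG15, chr1:27672193-27672442, minus strand, for IFI6 and chr12:112938224-112938473, plus strand, for OAS3, again from RefSeq GRCh38.p14.
ISG15: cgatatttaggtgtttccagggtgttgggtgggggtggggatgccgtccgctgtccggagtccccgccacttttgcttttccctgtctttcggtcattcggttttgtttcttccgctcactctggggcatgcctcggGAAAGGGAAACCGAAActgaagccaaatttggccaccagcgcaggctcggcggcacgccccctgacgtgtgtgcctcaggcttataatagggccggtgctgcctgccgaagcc
IFI6: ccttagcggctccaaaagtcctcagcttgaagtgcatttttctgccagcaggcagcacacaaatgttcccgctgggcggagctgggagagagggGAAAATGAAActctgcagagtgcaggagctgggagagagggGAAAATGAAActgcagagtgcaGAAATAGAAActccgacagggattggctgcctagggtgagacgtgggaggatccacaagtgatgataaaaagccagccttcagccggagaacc
OAS3: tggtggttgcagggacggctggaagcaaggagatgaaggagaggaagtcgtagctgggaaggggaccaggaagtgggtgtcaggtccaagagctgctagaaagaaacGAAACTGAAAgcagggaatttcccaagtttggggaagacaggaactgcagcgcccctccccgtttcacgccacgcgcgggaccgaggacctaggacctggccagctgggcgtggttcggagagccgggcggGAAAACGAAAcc

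Lists of genes with short transcripts were higher in a way that moved with length. Of 36 genes of the mitochondrial ribosome and respiratory chain, 18 were higher and 3 lower, but adjusted for length 7 were higher and 5 lower, and without simvastatin replicate 3, 17 and 1. The median transcript length of that list was 1673 bases, against 3368 for all genes tested. NDUFS7, a subunit of complex I whose longest annotated transcript has 3743 bases, had 60.3, 60.5 and 62.8 FPKM with simvastatin and 30.1, 34.9 and 28.3 FPKM with lovastatin (log2 difference 0.96, SE 0.12, adjusted p = 1.15e-05), and 1.04 after adjustment. ATP5D and COX5A, of ATP synthase and complex IV, had 0.64, SE 0.11 and 0.49, SE 0.07 (0.42 and 0.24 after adjustment), and UQCRC2 of complex III -0.53, SE 0.10.

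Histones, also short, were higher in 5 of 11 genes and lower in 0, and in 3 and 2 after adjustment. HIST1H1C, a linker histone, had 23.4, 18.7 and 19.7 FPKM against 6.74, 8.77 and 10.8 FPKM (log2 difference 1.16, SE 0.21, adjusted p = 0.000438). Proteasome genes went from 8 higher and 2 lower of 28 to 3 higher and 5 lower. PSME4, a proteasome activator with a long transcript, was higher in either case (0.59 and 0.88). Splicing factors, with long transcripts, were lower in 14 of 28 genes and higher in 4, and in 9 and 2 after adjustment (11 and 2 without simvastatin replicate 3). PTBP1 had 135, 112 and 146 FPKM against 219, 239 and 239 FPKM (log2 difference -0.83, SE 0.13, adjusted p = 0.000109), and HNRNPU had -0.59, SE 0.06, or -0.26 after adjustment. Ribosome biogenesis genes were lower in 9 of 34 and higher in 4, and in 8 and 0 after adjustment, led by POLR1B of RNA polymerase I (-1.04, SE 0.17).

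**Figure D4:**
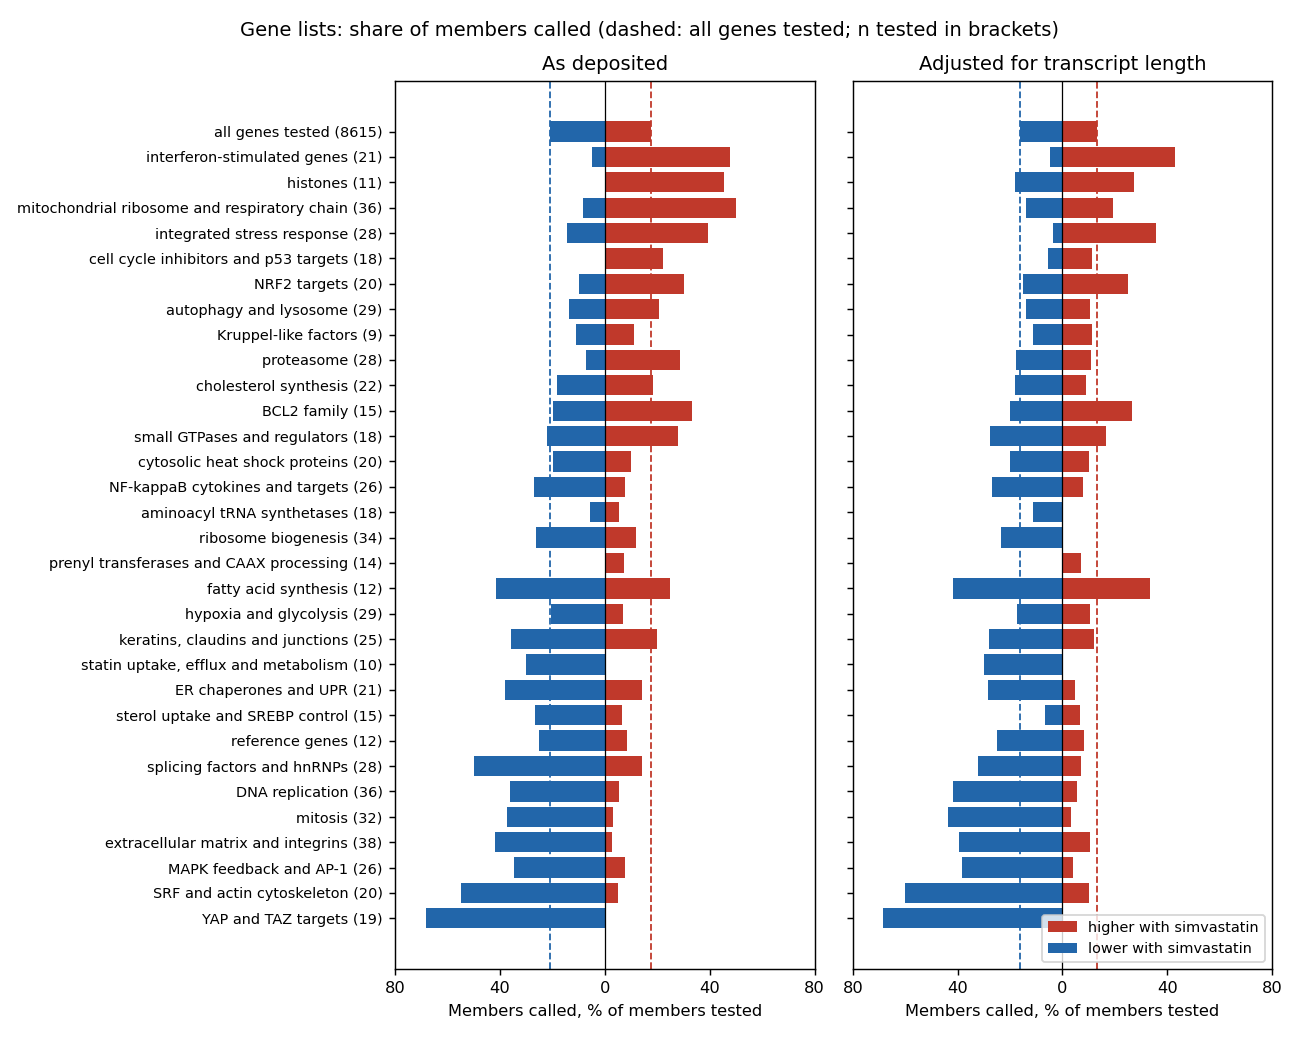
Share of each gene list called higher (right of 0) or lower (left of 0) with simvastatin than with lovastatin at 20 µM, as deposited and after adjustment for transcript length, with the number of members tested in brackets and dashed lines at the shares of all genes tested. YAP and TAZ targets have 13 of 19 lower on both sides, while the mitochondrial list goes from 18 of 36 higher to 7 of 36.

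Of 10 genes of statin uptake, efflux and metabolism, 3 were lower and 0 higher. AHR, the aryl hydrocarbon receptor that controls drug-metabolising genes, had 13.3, 13.5 and 20.00 FPKM with simvastatin, 33.97, 35.9 and 28.2 FPKM with lovastatin and 16.1, 18.6 and 16.3 FPKM in the control (log2 difference -1.04, SE 0.17, adjusted p = 0.00023). Its lovastatin libraries stood above both other groups, which overlapped. The exporter ABCC4 had -0.62, SE 0.14, with -0.40 without simvastatin replicate 3 and -0.36 adjusted for length. Of Kruppel-like factors, KLF4 was higher (33.4, 29.8 and 29.3 FPKM against 20.6, 20.4 and 20.9 FPKM and 3.24, 2.05 and 3.59 FPKM in the control) and KLF6 lower (99.1, 87.3 and 99.4 FPKM against 144, 138 and 151 FPKM and 54.8, 61.4 and 56.05 FPKM), while 7 of 9 were not called. In the hypoxia and glycolysis list 6 of 29 (20.7%) were lower and 2 (6.9%) higher, beside 21% and 17.6% of all genes, with NDRG1 at -0.73, SE 0.26, which lost its call when adjusted for length or without any 1 of 4 libraries, and PFKP at -0.55, SE 0.10. Of autophagy and lysosome genes 6 of 29 (20.7%) were higher and 4 lower, near the 17.6% of all genes called higher, with 3 and 3 without simvastatin replicate 3 and 3 and 4 adjusted for length, and of aminoacyl tRNA synthetases 1 of 18 was higher and 1 lower. Common reference genes were not level, with ACTB lower, TFRC at -0.59, SE 0.11 and GUSB at 0.58, SE 0.15, and 8 of 12 were not called.

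Markers of cell kinds were read in the PANC-1 groups. They cannot tell PANC-1 from another epithelial line, so they do not test the label of the line. Epithelial markers were present, with 7 of 9 in the table and KRT8, KRT18 and KRT19 above 250 FPKM in each library, and their summed level was 1291 to 1352 FPKM with simvastatin, 1280.4 to 1324 with lovastatin and 1563 to 1586 in the control. Of fibroblast markers 3 of 11 were in the table, summing to 61.9 to 83.6 FPKM with simvastatin, 122 to 138 with lovastatin and 152 to 177 in the control. That sum was mostly COL1A1 (-0.74, or -0.47 adjusted for length) and THY1 (-0.95), and COL1A2, a defining marker, was at 0.0375, 0.126 and 1.001 FPKM with simvastatin and 0.0397, 0.473 and 0.37 FPKM with lovastatin. In the control COL1A2 had 0.881, 0.374 and 24.6 FPKM and the epithelial marker MUC1 42.6, 59.3 and 271 FPKM, so that control replicate 3 was the high library for both. Leukocyte markers had 2 of 11 genes, CD14 and CD68, with no call and sums of 35.1 to 42.4 FPKM with simvastatin, 39.0 to 46.9 with lovastatin and 32.0 to 39.9 in the control, the endothelial marker EMCN was under 0.1 FPKM in all 6 statin libraries and up to 5.43 FPKM in the control, and 0 of 10 acinar and islet markers were in the table. In bulk RNA, fewer cells of a kind and less RNA per cell cannot be told apart, and the part of other cells in the matrix genes was not tested.

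At 2 µM, 0 genes were called different between simvastatin and lovastatin in PANC-1. The count was 0 of 8615 genes (0%) in limma, with 365 at an unadjusted p under 0.05 and 0.748 as the lowest adjusted p. For 8156 genes, or 94.7%, the 95% interval of the difference lay inside 2-fold. The median distance from the estimate to either bound was 0.31 on the log2 scale. At 20 µM the median absolute difference was 0.299, so intervals of this width at 2 µM do not exclude differences of that size. ITGA2 had 56.5 ± 0.879 FPKM (SD, n = 3) with simvastatin and 56.5 ± 2.54 FPKM with lovastatin at 2 µM. NT5E had 202 ± 6.89 and 209 ± 7.198 FPKM, and HMOX1 39.9 ± 1.99 and 40.1 ± 1.77 FPKM. For these 3 genes the means with the 2 statins lay close together at the low dose.

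The difference between doses was itself tested. For 1798 genes (20.9%) the difference between the statins at 20 µM departed from that at 2 µM, 769 upward (8.93%) and 1029 downward (11.9%). ITGA2 departed by -1.60 (SE 0.13, adjusted p = 1.31e-06), NT5E by -1.13 (SE 0.09, adjusted p = 1.31e-06), HMOX1 by 0.98 (SE 0.08, adjusted p = 1.31e-06) and FADS1 by -1.16 (SE 0.17, adjusted p = 0.000201). Of YAP and TAZ targets 8 of 19 departed downward and 0 upward, and of SRF and actin genes 10 and 1 of 20. Adjusted for length, 1157 genes departed between doses.

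In MiaPaCa-2 the same 2 drugs at 20 µM differed at 3184 of 8534 genes (37.3%), with lovastatin at n = 2 because column 3 was a weighted sum of others. The difference between the lines in the simvastatin minus lovastatin value was called for 3412 of 8738 genes (39%), 1616 higher (18.5%) and 1796 lower (20.6%) in PANC-1. FADS1 was lower with simvastatin in PANC-1 and higher in MiaPaCa-2, where it had 40.4 ± 5.57 FPKM with simvastatin and 19.5 and 12.7 FPKM in the lovastatin libraries (difference between lines -2.43, SE 0.29, adjusted p = 1.69e-07). FGFR1, a fibroblast growth factor receptor, had 16.4, 13.95 and 18.5 FPKM with simvastatin and 22.7, 37.9 and 52.3 FPKM with lovastatin in PANC-1. In MiaPaCa-2 it had 78.1 ± 17.4 FPKM with simvastatin and 25.6 and 21.6 FPKM with lovastatin (difference between lines -2.76, SE 0.36, adjusted p = 5.44e-07). Both genes thus had opposite orders of the 2 statins in the lines.

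IFI6 was likewise higher with simvastatin in PANC-1 and lower in MiaPaCa-2, at 7.22 ± 1.76 against 21.6 and 21.4 FPKM (difference between lines 2.47, SE 0.23, adjusted p = 2.42e-09). ISG15 was higher with simvastatin in both, with 0.88 and 1.15, and its difference between lines was not called (-0.27, SE 0.15, adjusted p = 0.157). HMOX1 had 0.97 in PANC-1 and 2.69 in MiaPaCa-2, and the difference between lines was -1.72 (SE 0.11, adjusted p = 2.21e-12). NT5E was lower with simvastatin in both, with -1.18 and -1.30, and its difference between lines was not called (0.12, SE 0.16, adjusted p = 0.559). By list, the difference between lines was lower in PANC-1 for 5 and higher for 0 of the 19 YAP and TAZ targets. The share that was lower lay near the 20.6% of all genes, while 18.5% of all genes were higher. The difference was lower for 18 and higher for 0 of the 28 integrated stress response genes. It was higher for 8 and lower for 0 of the 21 interferon-stimulated genes.

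Simvastatin replicate 3 raised or lowered some genes alone. RGS5, a regulator of G protein signalling, had 0.104, 0.465 and 19.3 FPKM with simvastatin and 0.572, 0.307 and 0.28 FPKM with lovastatin, and PANC-1 control replicate 3 was also high at 115 FPKM. UBE3D, a ubiquitin ligase, had 6.002, 3.26 and 233 FPKM, and KNTC1, a kinetochore protein, 20.9, 8.83 and 125 FPKM. These 3 genes, and ZCCHC2 and SNHG3, were not called with all libraries, and each difference changed sign without replicate 3. ATP6V0E1P2, MAGOH3P, RPL34P6 and HMGB1P21, all pseudogenes, were at 0.0952 FPKM in replicate 3, the value that 76 genes shared. UCA1, under the ID ENSG00000273782, had 273, 0.00353 and 0.0952 FPKM with simvastatin, and replicate 1 alone set its uncalled difference of 2.74. Among the 3319 genes called with all 6 libraries, 0 changed sign without replicate 3.

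**Figure D5:**
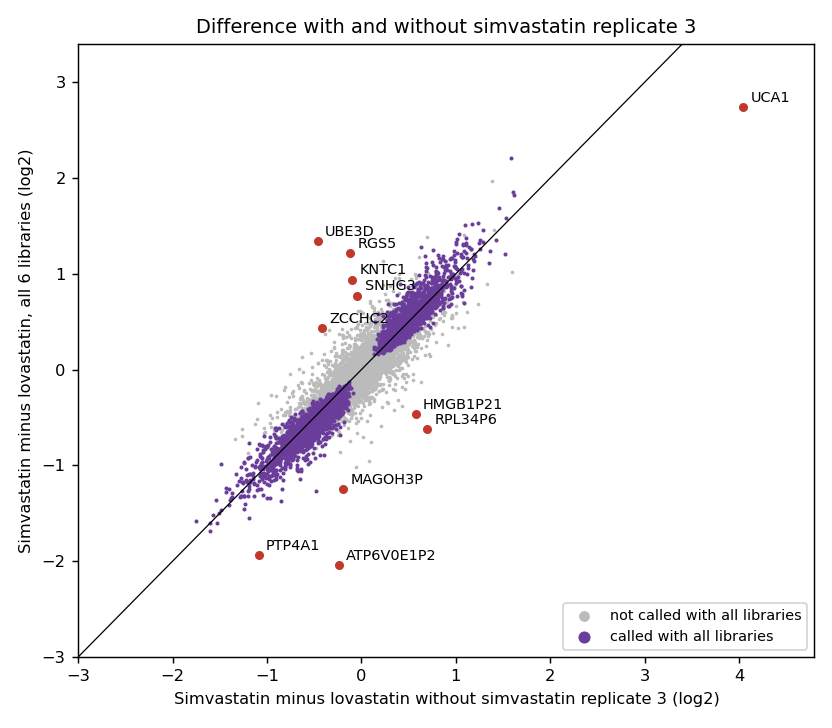
Difference between simvastatin and lovastatin at 20 µM with all 6 libraries (vertical, log2) against the same without simvastatin replicate 3 (horizontal, log2), with 1 point per gene and the line of equality. Most genes lie near the line. The named genes in red depart from it, PTP4A1 going from -1.94 to -1.09.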

How the data were processed

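Per the submitters' processing notes, reads were processed with TopHat2 2.0.13, Cufflinks 1.1 and Cuffdiff on hg19. The deposited table holds log2 values, read here as log2(FPKM + 1). Not given in the sources used here are the pseudocount, the rule that chose its 8738 genes, and the step behind the common distribution of the libraries. Depth is unknown.

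The deposited log2 values were tested with limma 3.58.1 in R 4.3.3 (trend and robust settings, two-sided) over 21 libraries of 7 PANC-1 groups. Genes had at least 1 FPKM in at least 3 PANC-1 libraries. Calls had a Benjamini-Hochberg adjusted p under 0.05 over all 8615 genes. The exact permutation test of 3 against 3 libraries cannot go below p = 0.1. A joint fit over 40 columns tested the difference between the lines, with 2 MiaPaCa-2 columns that were weighted sums of others left out. The fit did not pair the samples by replicate number, and a fit with a replicate block is given below.

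Named genes were those called with and without simvastatin replicate 3, with groups that do not overlap and at least 5 FPKM in the higher group (12 largest each way). Added to them were up to 4 called genes per list, up to 5 each way per interaction and for the effect of replicate 3. A few genes that the rule names are not reported here. The members and lists were chosen with earlier results of these data known. Alternatives covered the pseudocount, filters, scaling, variance model, replicate block, libraries left out and, added after seeing the data, transcript length (lowess span 0.3, longest annotated transcript, 13 genes without one). Promoters came from RefSeq GRCh38.p14. Figures used matplotlib 3.10.9.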

Additional observations from a re-analysis of the deposited data

Results flagged for a closer look

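The difference between simvastatin and lovastatin at 20 µM in PANC-1 departed from that at 2 µM for 1798 genes, by the test of the dose interaction in limma. Among the named genes the departure was 1.86 for WFDC2, 1.75 for TGFBR3L, 1.64 for FTH1P8, 1.63 for FAM227B and 1.59 for SDSL on the log2 scale. It was -2 for PTP4A1, -1.95 for R3HDM2, -1.79 for DCK, -1.77 for DAB2 and -1.64 for ZDHHC20P4. PTP4A1 also had its lowest level in simvastatin replicate 3. In WFDC2, FTH1P8 and FAM227B that library was the highest with simvastatin at 20 µM. Without it their differences at 20 µM were 1.000, 1.61 and 1.01.

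The difference at 20 µM also departed between PANC-1 and MiaPaCa-2 for 3412 genes, by the test of the line interaction. On the log2 scale it was 4.41 for UBE3D, 3.46 for TNFRSF6B, 3.45 for PTGDS, 2.78 for SLC12A5 and 2.78 for C8G. In the other direction it was -2.87 for FAM25A, -2.76 for FGFR1, -2.66 for PTP4A1, -2.60 for ABLIM3 and -2.43 for FADS1. The value of UBE3D rests on simvastatin replicate 3 in PANC-1, where it had 233 FPKM against 6.002 and 3.26 FPKM in replicates 1 and 2.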

How the results depend on the processing

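The count of genes differing between the statins at 20 µM was within 1.5 times the reported one under each alternative run except length adjustment without simvastatin replicate 3, which gave 2029 genes, 882 higher and 1147 lower. With the 2 groups fitted alone, 1184 genes were lower, 1070 higher and 2254 in all. At 2 µM, 1 gene was called when the 2 groups were fitted alone, and the dose interaction had 1157 genes after length adjustment. The cause was not tested for any of these.

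Leaving out 1 library at a time gave 2729 to 3062 genes at 20 µM, 1202 to 1369 higher and 1515 to 1719 lower. It gave 0 genes at 2 µM each time, 1388 to 1755 for the dose interaction and 2693 to 3323 for the line interaction. Same-numbered libraries of the 2 statins deviated together at r = 0.0247, 0.0278 and 0.0337, each best with its own number. The replicate block gave 3289 genes, 1493 higher and 1796 lower.

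Of the values for single genes, 2701 kept direction and side of the threshold, 167 lost their call, 6 gained one and 18 changed sign. HSPA4L was at 0.062 and KRT19 at -0.082 with length adjustment and without simvastatin replicate 3, and KRT19 at -0.066 with length adjustment alone. Over the fits that left out 1 library each UBE3D ranged from -0.47 to 2.42, RGS5 from -0.12 to 1.98, KNTC1 from -0.096 to 1.74, ZCCHC2 from -0.42 to 0.95, SNHG3 from -0.042 to 1.42, RPL34P6 from -1.43 to 0.69 and HMGB1P21 from -1.10 to 0.57. For these 7 genes the end with the other sign came without simvastatin replicate 3. With length adjustment added, UBE3D was at -0.46, ZCCHC2 at -0.18, SNHG3 at -0.13, RPL34P6 at 0.39 and HMGB1P21 at 0.27, and with array weights ZCCHC2 was at -0.25, RPL34P6 at 0.35 and HMGB1P21 at 0.34. None of the values with a changed sign was called. The cause was not tested, and depth could not be assessed from the deposited values.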
